A study of Mus musculus with 14 samples.

Results

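The S133A-KCREB line is a stable derivative of αTN4-1 mouse lens epithelial cells that overexpresses a doubly altered form of the transcription factor CREB, and its transcriptome was compared between a culture given TGFβ and a control culture. Each gene's change was taken as log2 of TPM + 1 in the TGFβ library over TPM + 1 in the control library, where TPM is an expression level corrected for transcript length that sums to the same total in each library. Genes were included where the 2 libraries averaged 5 TPM or more, which gave 10301 of the 40853 gene identifiers in the deposited tables. There was 1 library per side, so a change within this line has no replicate error and is given as a value. The mean limit fell inside a continuum of genes, with Zfp512b at a mean of 5.01 TPM just inside it and Nudt12 at 4.997 TPM just outside.

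CREB binds cAMP response elements (CREs) in promoters and recruits coactivators once protein kinases phosphorylate a serine in its activation domain; S133A replaces that serine with alanine. KCREB is the usual name of a dominant-negative CREB whose altered DNA-binding domain lets it pair with normal CREB and keep the pair from DNA. TGFβ signals through receptor kinases to SMAD proteins. In the lens it drives epithelial cells towards a fibrotic, mesenchymal state with deposits of matrix, as seen in some forms of cataract.

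The S133A-KCREB TGFβ culture received 20 ng/mL TGFβ for 24 h in medium lacking serum, and the S133A-KCREB control culture is labelled only as control. Whether the control culture was also deprived of serum is not in the labels, so the effects of TGFβ and of removing serum cannot be told apart. The other 6 lines, named S133A-CREB, KCREB, R314A-CREB, S133A/R314A-CREB, WT-CREB and Vector, had the same pair of cultures each. All 7 derive from αTN4-1, a line made from lens cells of mice carrying a viral T antigen driven by a lens crystallin promoter, and the growth protocol attached to each library gives neomycin selection, although its text omits S133A-KCREB and KCREB from the lines it names. Whether each is a single clone is not stated in the labels, so construct and clone cannot be told apart in any difference between lines.

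Both libraries of the line detected similar numbers of genes, 12589 at 1 TPM or more with TGFβ and 12597 in the control. Mitochondrially encoded genes held 6.75% of TPM with TGFβ and 8.39% in the control. Of 10 lens epithelium markers, 6 had a mean of at least 5 TPM, among them Pax6 with 89.7 TPM with TGFβ and 110 TPM in the control, and Six3 with 57.4 and 67.1 TPM in that order. Sox2 had 48.6 TPM with TGFβ and 130 TPM in the control, and Cryab had 387 TPM with TGFβ and 733 TPM in the control. Of these 6 markers 3 were at least 1.5-fold lower and 0 higher, beside 6.55% lower and 5.24% higher of all 10301 genes. All 10 markers summed to 618 TPM with TGFβ and 1087 TPM in the control. Foxe3, a forkhead factor of lens epithelium, was at 0.00455 TPM with TGFβ and 0 TPM in the control, and Cdh1, Pitx3 and Cryaa lay under a mean of 5 TPM. All of the 12 endothelial markers had means under 5 TPM, with 4 at 0 in both libraries, as did 11 of 12 macrophage markers, of which 5 were at 0 in both; the exception, Lyz2, had 8.38 TPM with TGFβ and 27.3 TPM in the control. Among the markers of another cell type, those of neuron and retina summed to 71.8 TPM with TGFβ and 4.68 TPM in the control, almost all of it Tubb3, the 1 of these 12 markers with a mean of at least 5 TPM. In the other 6 lines these markers summed to 0.780 to 14.9 TPM with TGFβ and 0.691 to 7.92 TPM in controls, and 5 of the 12 were at 0 in both libraries of the S133A-KCREB line. Corneal and surface ectoderm markers summed to 115 TPM with TGFβ and 819 TPM in the control, mainly Aldh3a1, with 5 of 12 at 0 in both. Skeletal and cardiac muscle markers summed to 198 TPM with TGFβ and 118 TPM in the control, mainly Tnnt2, with 6 of 14 at 0 in both. The part of these markers in the results was not tested.

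Creb1 stood at 38.3 TPM in the S133A-KCREB TGFβ library and 34.04 TPM in its control. In the other 6 lines it ranged over 4.43 to 30.1 TPM with TGFβ and 6.59 to 25.8 TPM in controls, so both S133A-KCREB libraries were the highest of their treatment. The table holds 1 value per gene, which does not separate the introduced form from the cells' own Creb1. Its log2 change was 0.17, within the range of -0.54 to 0.21 in the other lines.

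Promoters of the genes with the largest changes were searched on both strands for the full CRE (TGACGTCA), its core TGACG and the AP-1 pattern TGANTCA. CREB and the FOS and JUN families bind elements of these kinds. N stands for any base, so the pattern is wider than the usual AP-1 form TGA(C/G)TCA. The RefSeq table (GRCm38.p6) gives 250 bases before to 50 after each start, and held promoters for 9 of the 15 genes with the highest changes and 9 of the 15 with the lowest, 13 promoters in each set. Without a match in the high set were Fn1, Mmp9, Ctsw, Adamts4, Cd40 and Lce1f. In the low set they were Slurp1, Aldh3a1, Gbp4, Ly6a, Mir703 and Vcam1. Some genes gave several promoters, 3 for Asb5 and 4 for Septin4. The full CRE was in 0 of 13 promoters of either set, against 1.79% of all 32851 promoters. At so low a share, 0 of 13 does not show that full CREs are rarer near these genes. The core TGACG was in 1 of 13 in each set (Adgra1 and Ecrg4), against 20.8% of all promoters. The AP-1 pattern was in 1 of 13 of the high set (Lif) and in 2 of 13 of the low set (Aldh1a1 and Efemp1). Of all promoters 7.81% held the same pattern. The match in Efemp1 reads TGAATCA, which is outside the usual AP-1 form. The promoter of Lif and 1 of 2 promoters of Aldh1a1 are printed as examples that hold an AP-1 site. The other Aldh1a1 promoter (chr19:20601718-20602017) holds 0. Tubb3 and Asb5, which changed more than Lif, held none of the motifs in their promoters. The Fosb promoter is printed because Fosb had the largest change of the measured CREB response genes, although its control level was under 5 TPM. The printed promoters lie at chr11:4257318-4257617 (plus strand), chr19:20492333-20492632 (plus strand) and chr7:19309996-19310295 (minus strand). Capitals mark the AP-1 site in Lif and Aldh1a1 and the CRE core in Fosb, which begin 228, 57 and 60 bases upstream of the start.
Lif: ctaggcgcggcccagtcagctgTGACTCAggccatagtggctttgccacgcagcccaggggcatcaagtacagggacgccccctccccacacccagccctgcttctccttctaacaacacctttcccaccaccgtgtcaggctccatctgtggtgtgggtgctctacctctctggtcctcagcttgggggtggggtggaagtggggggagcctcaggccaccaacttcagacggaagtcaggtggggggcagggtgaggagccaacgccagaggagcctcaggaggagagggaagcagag
Aldh1a1: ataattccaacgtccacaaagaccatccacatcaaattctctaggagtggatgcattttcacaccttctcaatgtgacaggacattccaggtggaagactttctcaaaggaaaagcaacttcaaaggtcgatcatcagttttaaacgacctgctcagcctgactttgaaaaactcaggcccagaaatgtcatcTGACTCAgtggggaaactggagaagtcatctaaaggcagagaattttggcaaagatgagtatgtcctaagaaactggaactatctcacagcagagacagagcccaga
Fosb: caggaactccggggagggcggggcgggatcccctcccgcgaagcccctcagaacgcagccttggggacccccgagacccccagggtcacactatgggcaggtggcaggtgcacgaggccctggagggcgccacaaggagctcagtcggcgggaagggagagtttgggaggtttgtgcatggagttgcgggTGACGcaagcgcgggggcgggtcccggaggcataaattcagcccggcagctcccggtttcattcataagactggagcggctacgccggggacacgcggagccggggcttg

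With TGFβ, 144 of the 10301 genes (1.40%) were at least 2-fold higher and 224 (2.17%) at least 2-fold lower than in the control. Past 4-fold there were 26 genes higher and 32 lower. At a limit of 1.5-fold the counts were 540 (5.24%) higher and 675 (6.55%) lower, and 9086 genes (88.2%) stayed within it. Counts in the gene lists below are to be read beside these shares of all genes. The median log2 change of all 10301 genes was 0.05, with an SD of 0.45 across genes. Under median-of-ratios scaling the 2-fold counts were 123 higher and 254 lower, so that the share of higher genes was 32.6% in place of 39.1%. Genes of high change were spread over the expression range: Fn1 was near 1000 TPM with TGFβ, Tubb3, Mmp9 and Ctsw were between 60.0 and 261 TPM, and several of the others had control values under 1 TPM.

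**Figure D1:**
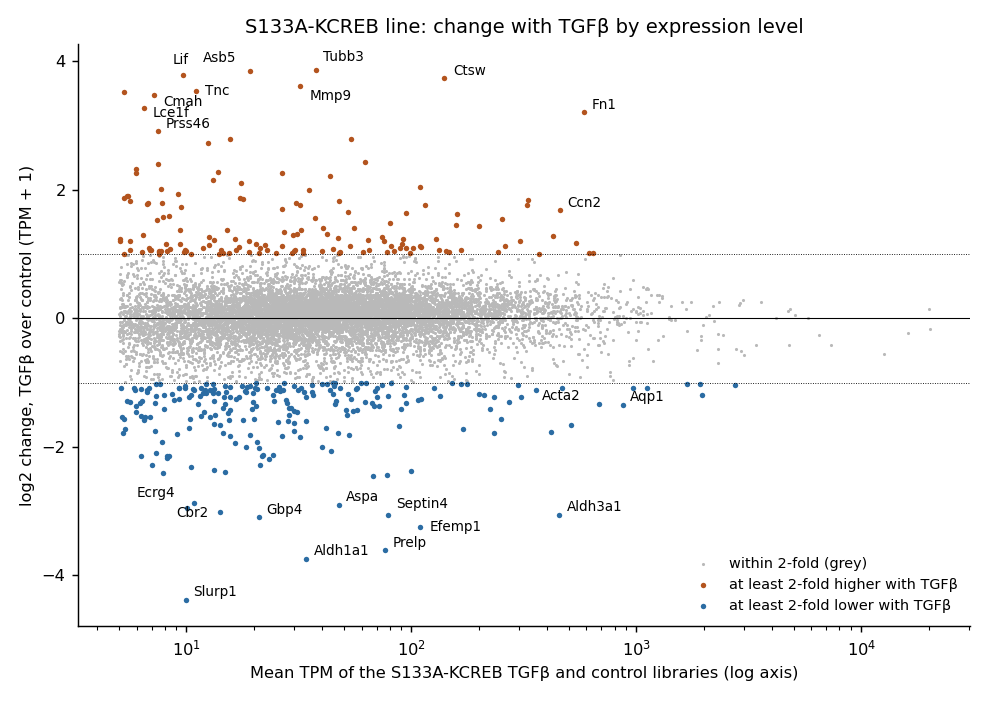
Change with TGFβ in the S133A-KCREB line for 10301 genes. The x axis is the mean TPM of the 2 libraries on a log axis, the y axis the log2 change of TPM + 1 (TGFβ over control); dotted lines mark 2-fold. Orange points are the 144 genes at least 2-fold higher, blue points the 224 at least 2-fold lower, and grey points the rest.

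The 15 highest changes were led by Tubb3, Asb5 and Lif, an order that changed when another constant was added in place of 1 TPM. Tubb3, a beta-tubulin best known from neurons (chr8:124138292-124148754, GRCm39), had 71.0 TPM with TGFβ and 3.97 TPM in the control, a log2 change of 3.86. Asb5, a SOCS-box protein expressed in muscle, had 36.5 and 1.61 TPM in the same order, a log2 change of 3.85. Lif, an IL-6 family cytokine, had 18.9 TPM with TGFβ and 0.439 TPM in the control, a log2 change of 3.79. In each of these 3 genes the line's change was above all of the other 6 lines' changes. Ctsw, a cysteine protease known from cytotoxic lymphocytes, had 261 TPM with TGFβ and 18.7 TPM in the control. The gelatinase gene Mmp9 had 60.0 TPM with TGFβ and 3.96 TPM in the control. Both were within the spread of the other lines, whose changes ran over 1.72 to 4.70 for Ctsw and 0.97 to 4.56 for Mmp9.

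Matrix genes were among the 15 highest changes. Fn1, which encodes fibronectin (chr1:71624632-71692439, GRCm39), had 1058 TPM with TGFβ and 114 TPM in the control, 9.29-fold higher. Tnc, the matricellular protein tenascin-C, had 21.2 TPM with TGFβ and 0.906 TPM in the control. Tgfbi, a secreted adhesion protein named for its induction by TGFβ, had 106 TPM with TGFβ and 18.8 TPM in the control. Fibronectin in the TGFβ culture was near the median of the other 6 TGFβ cultures (998 TPM), and its control value was below their control median (220 TPM). Adamts4, an aggrecan-cleaving protease, had 94.8 TPM with TGFβ and 12.8 TPM in the control. Serpinf1, which encodes the secreted factor PEDF, had 28.2 and 3.19 TPM in that order. The rest of the 15 were Cmah (log2 change 3.47), Lce1f (3.28), Prss46 (2.91), Adgra1 (2.73) and Cd40 (2.41). Lce1f belongs to a cluster of closely similar genes, so its reads may be split among copies and its value is uncertain.

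**Figure D2:**
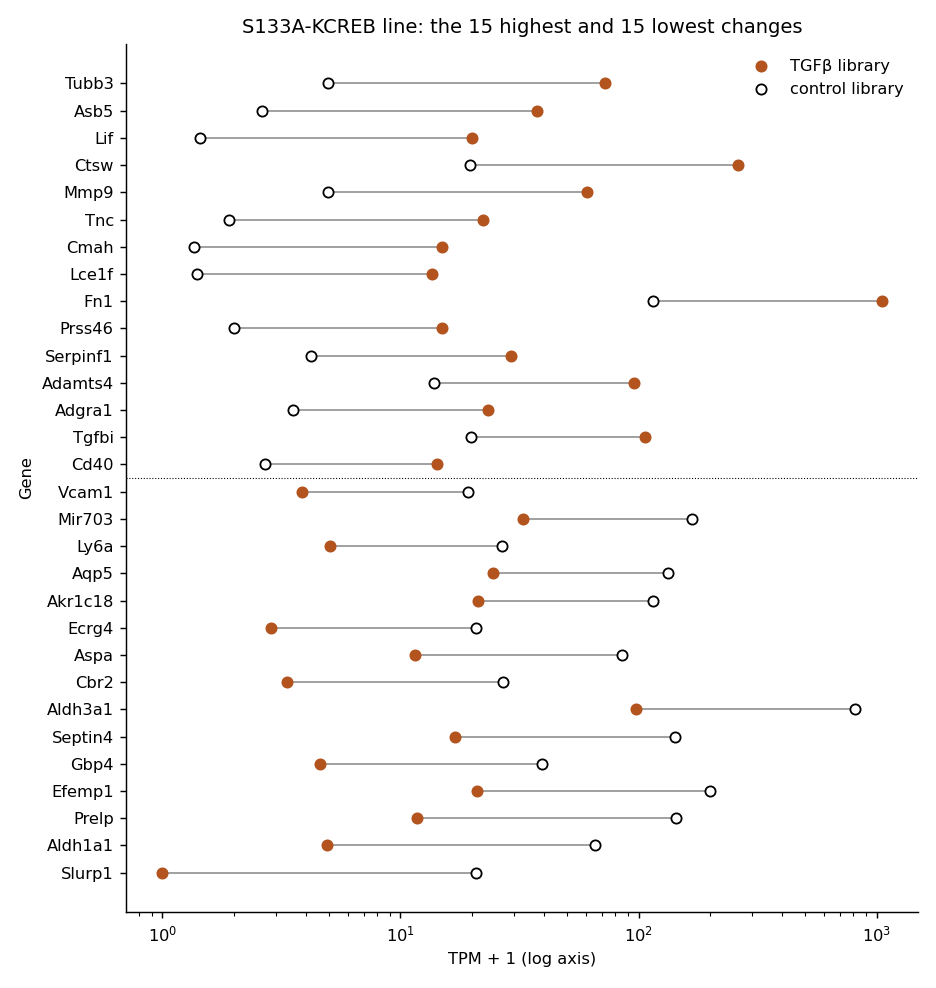
TPM + 1 (log axis) of the 15 genes with the highest and the 15 with the lowest change in the S133A-KCREB line, predicted genes and pseudogenes left out. Filled points are the TGFβ library and open points the control library, 1 library each. Fn1 and Ctsw had the highest TGFβ levels of the upper set, and Aldh3a1 the highest control level of the lower set.

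The 15 lowest changes were led by Slurp1 and Aldh1a1, an order that also depended on the added constant. Slurp1, a secreted Ly6-type protein, was listed at 0 TPM with TGFβ and had 19.9 TPM in the control, a log2 change of -4.38. Aldh1a1, which oxidises retinal to retinoic acid (chr19:20469947-20620827, GRCm39), had 3.91 TPM with TGFβ and 64.4 TPM in the control, a log2 change of -3.74. Aldh3a1, a corneal crystallin-like enzyme that clears lipid aldehydes, had 96.9 TPM with TGFβ and 813 TPM in the control. Both aldehyde dehydrogenase genes were low with TGFβ in other lines too: in the other 6 lines Aldh1a1 fell by a mean of 3.18 on the log2 scale (limma adjusted p = 0.000407) and Aldh3a1 by a mean of 1.85 (limma adjusted p = 0.00601). Prelp, a leucine-rich proteoglycan, had 10.7 TPM with TGFβ and 142 TPM in the control. Efemp1, which encodes fibulin-3, had 20.0 and 199 TPM in that order. Septin4, a filament-forming GTPase, had 16.0 TPM with TGFβ and 141 TPM in the control. Gbp4, an interferon-induced GTPase, had 3.59 and 38.3 TPM, and the water channel gene Aqp5 had 23.4 TPM with TGFβ and 132 TPM in the control. The other 7 were Cbr2 (log2 change -3.01), Aspa (-2.90), Ecrg4 (-2.87), Akr1c18 (-2.45), Ly6a (-2.40), Mir703 (-2.37) and Vcam1 (-2.31). Akr1c18 and Ly6a belong to families of similar sequence, so their values are uncertain, and reads at the Mir703 locus are not a measure of the mature microRNA.

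Genes that SMAD proteins are known to induce were mostly higher with TGFβ. Of 19 measured genes of a 21-gene list of direct targets and feedback genes, 8 were at least 2-fold higher and 1 lower. The median log2 change was 0.68, beside 0.05 over all 10301 genes and 0.86 in this list for the mean of the other 6 lines. The receptor-trafficking feedback gene Pmepa1 had 507 TPM with TGFβ and 148 TPM in the control. The connective tissue growth factor gene Ccn2 had 698 and 217 TPM in that order. The early-response repressor gene Klf10 had 41.1 TPM with TGFβ and 11.9 TPM in the control, a log2 change of 1.71, above the range of 0.28 to 1.49 in the other 6 lines. The exception in the list was Cdkn1a, the cyclin-dependent kinase inhibitor p21, with 80.2 TPM with TGFβ and 171 TPM in the control. Its log2 change of -1.09 was below the range of -0.87 to 0.83 in the other 6 lines, and its control level was above their highest control of 93.5 TPM.

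Ligands and receptors of the pathway had a median change near 0. Of 15 measured genes among 20 ligands, receptors and latent binding proteins, 0 were at least 2-fold higher and 1 lower, with a median of -0.03. Of all 10301 genes 1.40% were 2-fold higher and 2.17% lower. Tgfb2, the ligand abundant in aqueous humour, had 62.7 TPM with TGFβ and 31.0 TPM in the control, a log2 change of 0.99. The mediator Smad3 had 42.6 and 78.4 TPM in that order. The gene past 2-fold was Fst, which encodes the activin-binding protein follistatin, with 20.3 TPM with TGFβ and 46.1 TPM in the control. Of the BMP and ID list, 0 of 6 measured genes passed 2-fold in either direction, which is near those shares for so few genes. Id1, a helix-loop-helix inhibitor induced by BMP, had 30.4 TPM with TGFβ and 33.4 TPM in the control, a log2 change of -0.13. The other 6 lines ran over -0.10 to 1.04, and Id1 rose in them by a mean of 0.48 (limma adjusted p = 0.0211).

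Among genes linked to epithelial-mesenchymal transition (EMT), the measured transcription factors and contractile genes were mostly near or below their control level. Matrix genes such as Fn1 and Tnc were higher, as given above. Of 6 measured EMT transcription factors 1 was past 2-fold, Prrx1, with 39.9 TPM with TGFβ and 104 TPM in the control. Snai2, the repressor Slug, had 29.3 TPM with TGFβ and 28.0 TPM in the control, a log2 change of 0.06, whereas its changes in the other 6 lines ran over 0.25 to 1.08. Snai1 was under 1 TPM in both libraries. Among 13 measured contractile and myofibroblast genes 0 were 2-fold higher and 2 lower. Acta2, the smooth muscle actin that marks myofibroblasts, had 389 TPM with TGFβ and 978 TPM in the control. Myl9, a myosin light chain, had 156 and 389 TPM in that order. Tnnt2, a troponin, had 174 TPM with TGFβ and 89.6 TPM in the control. The lower Acta2 level was shared with the other 6 lines, where it fell by a mean of 1.02 on the log2 scale (limma adjusted p = 0.00453). In bulk RNA, fewer cells expressing such a gene and less RNA per cell cannot be told apart. Of 11 measured junction and keratin genes 2 were 2-fold higher: Krt14, a basal keratin, with 15.1 TPM with TGFβ and 3.85 TPM in the control, and Cdh11, a mesenchymal cadherin, with 181 and 76.5 TPM.

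The matrix lists differed from each other. Of 11 measured fibronectin and matricellular genes 5 were at least 2-fold higher and 1 lower, Ccn3, with a list median of 0.44. Among 12 measured fibrillar collagens and collagen-processing enzymes 0 passed 2-fold, while 5 were 1.5-fold higher and 1 lower. Plod2, the lysyl hydroxylase of collagen telopeptides, had 1128 TPM with TGFβ and 568 TPM in the control. Col5a2 had 233 and 138 TPM in that order. Col1a1 was under the level limit, with 7.53 TPM with TGFβ and 1.37 TPM in the control. All 3 measured members of the 10-gene leucine-rich proteoglycan and fibulin-3 list were at least 4-fold lower. Prelp and Efemp1 were already named above for their low changes. Ogn had 2.17 TPM with TGFβ and 12.5 TPM in the control. Of the 10 genes 4 were at 0 in both libraries. With a mean limit of 1 TPM the list's median was -2.67 in place of -3.25. With so few genes measured, a response of the family as a whole was not tested. Of 12 matrix proteases and inhibitors 2 were 2-fold higher, among them Mmp9, and 0 were lower.

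Genes of the lens capsule, the basement membrane that surrounds the lens, had a median of -0.11 in the line and -0.32 for the mean of the other 6 lines. Col4a6 had 15.9 TPM with TGFβ and 36.2 TPM in the control, the 1 gene past 2-fold among the 12 measured. In 4 of the 12 the change was above the range of the other lines, beside 15.3% of all 10301 genes. Hspg2, the heparan sulphate proteoglycan perlecan, had 67.2 TPM with TGFβ and 53.8 TPM in the control, a log2 change of 0.31, while it fell by a mean of 0.41 in the other lines (limma adjusted p = 0.00669). The difference between the line and the other 6 was 0.73 ± 0.22 (SE) and did not pass the adjusted threshold.

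Several lens identity genes were lower. Of 12 measured lens epithelial transcription factors and receptors 4 were at least 2-fold lower and 1 higher. The median was -0.50 in the line and -0.51 for the mean of the other 6 lines. Fgfr3, a receptor for the fibroblast growth factors that drive fibre formation, had 6.59 TPM with TGFβ and 35.8 TPM in the control. Sox2, a partner of Pax6, had 48.6 and 130 TPM in that order. Aqp1, the main water channel of lens epithelium, had 492 TPM with TGFβ and 1254 TPM in the control. The gene that was higher was Jag1, a Notch ligand, with 231 TPM with TGFβ and 83.3 TPM in the control. Of 27 crystallin and fibre genes 5 were measured and 14 were at 0 in both libraries. Cryab, the small heat-shock crystallin, had 387 TPM with TGFβ and 733 TPM in the control.

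The genes classically induced through cAMP and CREB were mixed. Of 19 measured genes of a 30-gene list 3 were at least 2-fold higher and 0 lower, and at 1.5-fold 6 were higher and 4 lower, with a median of 0.06. Fosb, an AP-1 subunit, had 8.83 TPM with TGFβ and 1.67 TPM in the control, a log2 change of 1.88 against a range of -0.15 to 1.03 in the other lines. Nfil3, a bZIP repressor, had 66.9 and 27.6 TPM in that order. Areg, an EGF receptor ligand, had 17.6 TPM with TGFβ and 33.1 TPM in the control, a log2 change of -0.88 against a range of -0.31 to 1.43. The orphan receptor gene Nr4a1 had 15.9 TPM with TGFβ and 26.9 TPM in the control. Among the CREB family and its coactivators 1 of 13 measured genes passed 2-fold, Creb3l2, a membrane-bound relative, with 44.3 TPM with TGFβ and 21.4 TPM in the control.

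Immediate-early and AP-1 genes had the highest median among the lists with more than 10 measured genes, at 0.75. For the mean of the other 6 lines their median was 0.49. Of 14 measured genes 5 were at least 2-fold higher and 0 lower. Jund had 126 TPM with TGFβ and 56.2 TPM in the control, a log2 change of 1.15 against a range of 0.30 to 1.08 in the other lines. Myc had 129 and 60.2 TPM in that order. Jun had 151 TPM with TGFβ and 86.3 TPM in the control.

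Some cytokine genes were higher and some interferon genes were lower. Of 21 measured NF-kB, IL-6 family and chemokine genes 4 were at least 2-fold higher (Lif, Il11, Il6 and Nfkbia) and 1 lower (Vcam1). Il11, a fibrosis-associated cytokine, had 22.1 TPM with TGFβ and 4.19 TPM in the control. Nfkbia, which encodes the NF-kB inhibitor IκBα, had 65.3 and 31.2 TPM in that order. The macrophage growth factor gene Csf1 had 449 TPM with TGFβ and 235 TPM in the control, a log2 change of 0.93 against a range of -0.23 to 0.52 in the other lines. Of 18 measured interferon-stimulated and MHC class I genes 4 were at least 2-fold lower and 0 higher, and 10 were 1.5-fold lower. The median was -0.66 in the line and -0.15 for the mean of the other lines. Gbp2 had 14.1 TPM with TGFβ and 45.9 TPM in the control. Isg15, a ubiquitin-like protein, had 53.8 and 136 TPM in that order. Isg15 went both ways among the other lines, over -1.48 to 1.70. The list summed to 4074 TPM with TGFβ and 5595 TPM in the control, both below the lowest of the other lines' libraries of the same treatment (5904 TPM with TGFβ and 7200 TPM in controls).

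**Figure D3:**
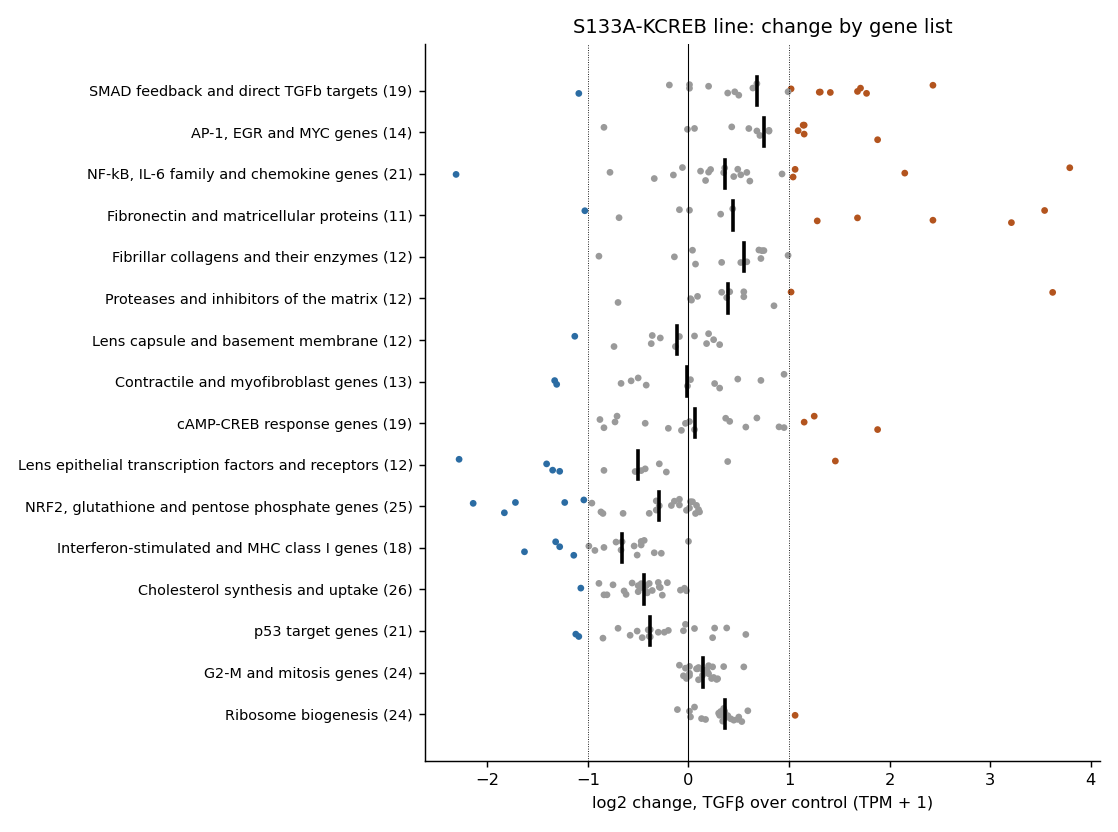
Log2 change with TGFβ (TPM + 1) in the S133A-KCREB line for the measured genes of 16 lists, number of genes in brackets. Each point is a gene, orange at least 2-fold higher and blue at least 2-fold lower, and the black bar is the list's median, which lay between -0.66 for interferon-stimulated genes and 0.75 for AP-1, EGR and MYC genes.

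Antioxidant and cholesterol genes had list medians below 0, and genes of protein folding and ribosome assembly had medians above 0. For the mean of the other 6 lines these medians were close, at -0.28, -0.40, 0.30 and 0.41 in that order. Of all 10301 genes 1.40% were 2-fold higher and 2.17% lower, and at 1.5-fold 5.24% were higher and 6.55% lower. Of 25 measured NRF2, glutathione and pentose phosphate genes 5 were at least 2-fold lower and 0 higher, with a median of -0.29. Gstm1, a glutathione transferase, had 78.4 TPM with TGFβ and 261 TPM in the control. Nqo1, a quinone reductase, had 11.1 and 42.0 TPM in that order, and the ferritin heavy chain gene Fth1 had 1801 TPM with TGFβ and 3705 TPM in the control. Of 26 measured cholesterol genes 7 were 1.5-fold lower and 0 higher, with a median of -0.44. Lss, which closes the sterol ring, had 60.8 TPM with TGFβ and 129 TPM in the control. Among 22 measured genes of the unfolded protein response 5 were 1.5-fold higher and 0 lower, with a median of 0.26. Its transcription factor gene Xbp1 had 180 TPM with TGFβ and 103 TPM in the control. Among 24 measured ribosome biogenesis genes, whose median was 0.36, 1 was 2-fold higher, Nop56, a component of box C/D particles, with 224 TPM with TGFβ and 107 TPM in the control.

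Targets of p53 and genes of cell division were compared because the line carries a viral T antigen and TGFβ halts many epithelia. Of 21 measured p53 targets 2 were at least 2-fold lower, Ccng1 and Cdkn1a, and 0 were higher. Ccng1, cyclin G1, had 227 TPM with TGFβ and 493 TPM in the control. The list's median was -0.38 in the line and -0.09 for the mean of the other lines, and 8 of the 21 changes were below the range of the other lines, beside 9.13% of all genes. The list summed to 2948 TPM with TGFβ and 3447 TPM in the control. Both were above the highest of the other lines' libraries of the same treatment (2629 TPM with TGFβ and 2727 TPM in controls). Genes of G2 and mitosis stayed near their control level. Of 24 measured, 0 passed 1.5-fold in either direction, and the median was 0.14. Bub1b, a spindle checkpoint kinase, had 103 TPM with TGFβ and 69.5 TPM in the control. In 9 of the 24 the change was above the range of the other 6 lines, beside 15.3% of all 10301 genes, and the steps were small, as for Plk1, a mitotic kinase, with 174 TPM with TGFβ and 143 TPM in the control. Glycolysis genes had 0 of 18 past 1.5-fold and a median of 0.00.

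The genes that passed 2-fold in the line were mostly genes with the same response elsewhere. In the other 6 lines, which share no library with this one, limma called 2576 of 12927 tested genes higher (19.9%) and 2405 lower (18.6%) with TGFβ at an adjusted p under 0.05. Of the 144 genes 2-fold higher in the S133A-KCREB line, 119 (82.6%) rose in the other 6 lines, against 22.7% of the 10301 genes, and 0 were called lower there by limma. Of the 224 genes 2-fold lower, 192 (85.7%) fell in the other 6 lines, against 19.1% of the 10301 genes, and 0 were called higher there by limma. The sign was the same in all of the other 6 lines for 103 of the 144 and for 177 of the 224. No gene was past 2-fold in the line with the opposite sign in all of the other 6.

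By the number of genes past 2-fold, the S133A-KCREB line lay inside the spread of the other lines. Over the same 10301 genes, genes at least 2-fold higher numbered 315 in KCREB, 232 in Vector, 160 in S133A/R314A-CREB, 144 in R314A-CREB, 62 in S133A-CREB and 46 in WT-CREB, beside the 144 of this line. Genes at least 2-fold lower numbered 56 in WT-CREB to 313 in KCREB in the other lines, beside 224. The line that carries the S133A change alone and the line labelled KCREB alone thus lay on either side of it. Across genes, which are not independent replicates, the changes of the S133A-KCREB line had a Pearson r of 0.802 with S133A/R314A-CREB, 0.760 with Vector, 0.726 with KCREB, 0.671 with R314A-CREB, 0.628 with S133A-CREB and 0.585 with WT-CREB. The SD of changes across genes was 0.27 in WT-CREB, the line with the lowest r, and 0.45 to 0.55 in Vector, KCREB, R314A-CREB and S133A/R314A-CREB; in S133A-CREB it was 0.35.

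**Figure D4:**
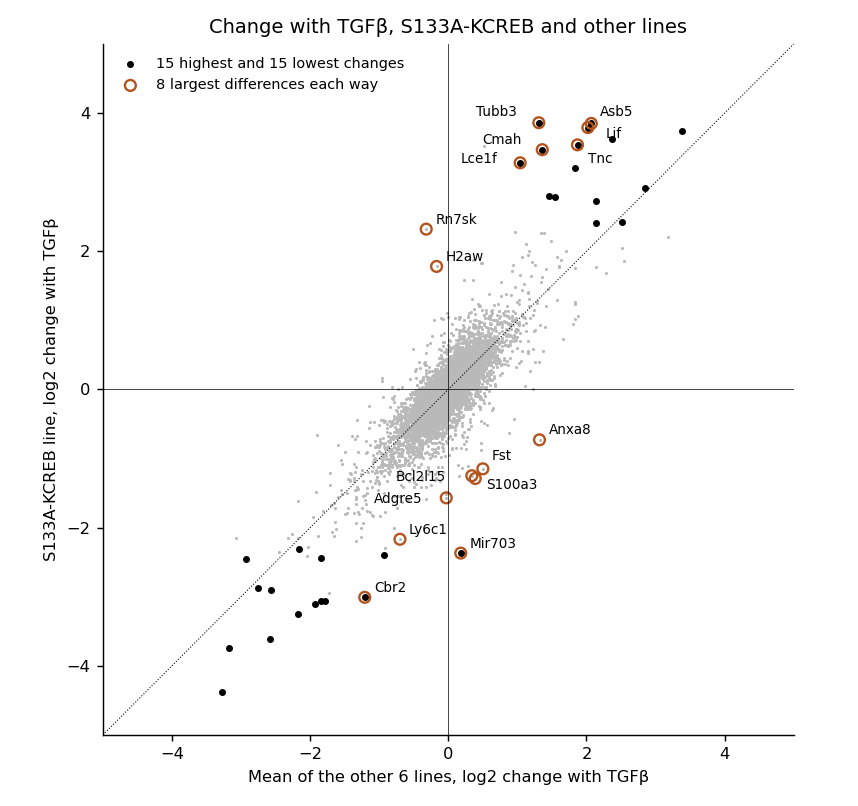
Log2 change with TGFβ (TPM + 1) in the S133A-KCREB line (y axis) against the mean change of the other 6 lines (x axis) for 10301 genes. Black points are the 15 highest and 15 lowest changes, orange rings the 8 largest differences in each direction, and the dotted line marks equal change; among the ringed genes, Rn7sk, H2aw, Anxa8, Fst, S100a3, Bcl2l15 and Mir703 lie on opposite sides of 0 on the 2 axes.

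The difference between the line and the other 6 was tested gene by gene with limma on the 7 within-line changes, with the lone line assumed to vary like the others. Of 12927 genes 0 (0.00%) passed an adjusted p of 0.05, the smallest adjusted p being 0.999. At an unadjusted limma p under 0.05 there were 407 genes (3.15%), 229 with a higher and 178 with a lower change in the S133A-KCREB line. That is below the share of 0.05 expected if no gene differed. The genes that follow are therefore given as values, chosen for lying outside the range of the other 6 lines, and a missed threshold does not show that the line responds like the others.

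Among genes with a higher change, 6 of the 8 largest distances belonged to genes that were also among the 15 highest changes, and the others were Rn7sk and H2aw. Rn7sk, the 7SK RNA that restrains transcript elongation, had 10.6 TPM with TGFβ and 1.32 TPM in the control, and differed from the other lines by 2.64 ± 0.68 (SE). This RNA is not normally polyadenylated. Tubb3 differed by 2.55 ± 0.75: the 6 other TGFβ libraries reached at most 14.49 TPM, against 71.0 TPM in the S133A-KCREB TGFβ library. Cmah, an enzyme that makes the sialic acid Neu5Gc, had 13.99 TPM with TGFβ and 0.352 TPM in the control, while the other TGFβ libraries reached at most 4.31 TPM. It differed by 2.11 ± 0.47. The distances were 2.24 ± 0.69 for Lce1f, 1.94 ± 1.10 for the histone gene H2aw, 1.78 ± 0.90 for Asb5, 1.77 ± 0.72 for Lif and 1.68 ± 0.89 for Tnc. Asb5 was close to KCREB, whose change was 3.73.

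Among genes with a lower change, Anxa8 stood against a response called in the other lines. Anxa8, a calcium-dependent membrane-binding annexin, had 116 TPM with TGFβ and 192 TPM in the control, a log2 change of -0.73. In the other 6 lines its changes were 2.25 in S133A-CREB, 1.96 in KCREB, 1.74 in WT-CREB, 1.32 in Vector, 0.59 in S133A/R314A-CREB and 0.05 in R314A-CREB, and it rose by a mean of 1.32 ± 0.27 (SE, limma adjusted p = 0.00719). The control level of the S133A-KCREB line was above the highest control of the others, 98.2 TPM, and the difference was -2.05 ± 0.71. Cbr2, a carbonyl reductase, had 2.34 TPM with TGFβ and 25.9 TPM in the control, and differed by -1.80 ± 0.37 from lines in which it also fell. Bcl2l15, a relative of the BCL2 apoptosis regulators, had 5.08 TPM with TGFβ and 13.5 TPM in the control, with a log2 change of -1.25 against a range of -0.03 to 0.76, and differed by -1.59 ± 0.32. Fst had a log2 change of -1.15 against a range of -0.53 to 1.65. The calcium-binding protein gene S100a3 had 2.75 TPM with TGFβ and 8.17 TPM in the control. Adgre5, which encodes the adhesion receptor CD97, had 2.17 and 8.40 TPM in that order, and KCREB came nearest to it with a log2 change of -1.18. Ly6c1 and Mir703 completed the 8, with log2 changes of -2.17 and -2.37; Ly6c1 has close relatives in sequence, so its value is uncertain.

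**Figure D5:**
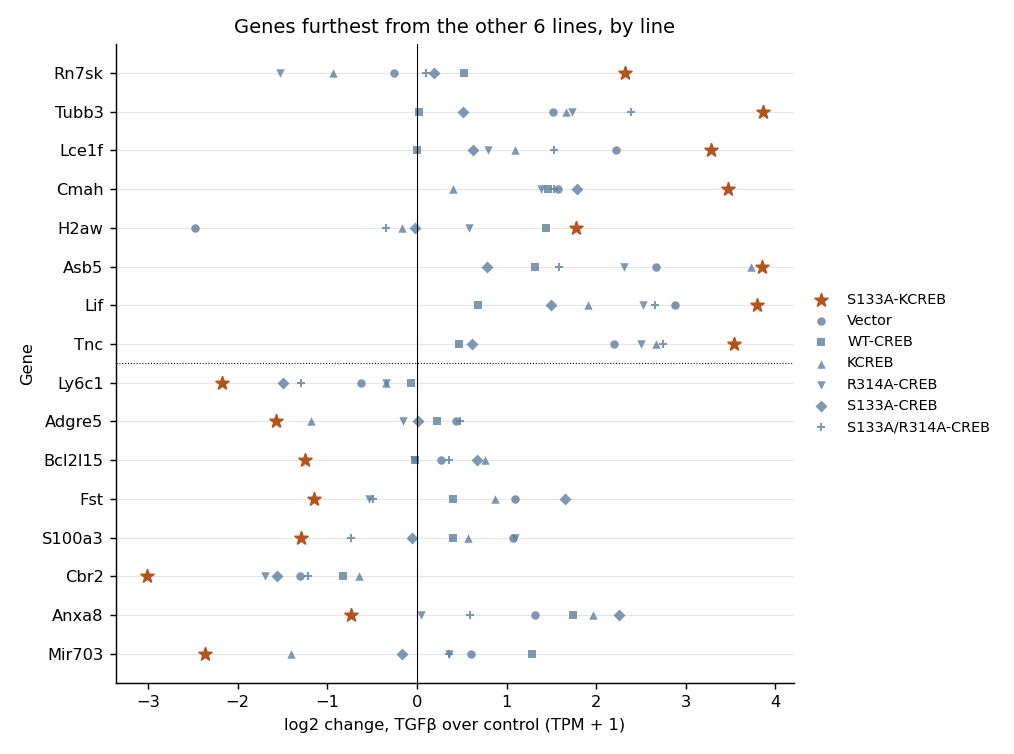
Log2 change with TGFβ (TPM + 1) by line for the 8 genes with the largest higher and the 8 with the largest lower difference between the S133A-KCREB line (star) and the mean of the other 6 lines (other symbols), 1 pair of libraries per point. The genes were chosen for this gap, which was small beside the nearest line for H2aw and Asb5 and wide for Rn7sk, Cmah, Tubb3 and Bcl2l15.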

How the data were processed

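RNA-seq of 14 cultures, 1 TGFβ and 1 control culture of each of 7 lines, was available as 1 gene table per library. The submitters' processing notes name STAR 2.7.6a, StringTie 2.0.4, edgeR and the build GRCm39, without roles. Per the file headers, each deposited table gives coverage, FPKM and TPM per gene; no source used here gives read totals or the annotation release, so depth is unknown. The deposited TPM values sum to 1000000 per library and were used as the main measure; rows were summed by gene identifier. The deposited FPKM values served as an alternative, and the deposited coverage signal only as a check of relative depth. Lines and treatments came from the sample titles, and no columns of per-sample values were left unused.

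Changes were log2(TPM + 1) differences within a line; the line name pairs each TGFβ library with its control, so the line is the block. Differences between the S133A-KCREB line and the other 6, and the TGFβ effect in those 6, were tested two-sided with limma 3.58.1 in R 4.3.3 (intensity trend, Benjamini-Hochberg over 12927 genes averaging 1 TPM or more in the 14 libraries). The test was checked on simulated data. Replicates are lines, not repeat cultures, so p-values measure the spread between lines.

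Genes named are Creb1, the 15 highest and 15 lowest changes without predicted genes and pseudogenes, up to 4 members with the largest change per list, and 8 differences each way outside the range of the other lines. Genes outside this rule are named as background values, chosen with their values seen. The genes, 35 gene lists and 8 marker lists were chosen with earlier results of these data known. Alternatives were other pseudocounts, filters, scalings, FPKM and leaving out each other line. Promoters came from RefSeq (GRCm38.p6) and were matched by symbol; gene coordinates are those of the files (GRCm39). Results for some genes are not reported here.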

Additional observations from a re-analysis of the deposited data

Results flagged for a closer look

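Among 39 genes named by the rules on largest changes and differences, 1 had a line whose log2 change stood apart from the other 6 of the 7 lines by Dixon's gap. Bcl2l15 changed by -1.25 in the S133A-KCREB line, and the gap to the nearest line was 0.61 of the whole range, above Dixon's critical value for 7 values. The gene was chosen for its distance from the other lines, and chance alone flags about 1 in 20 groups.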

How the results depend on the processing

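The alternatives were run for list medians and for 39 genes: Creb1, the 15 highest and 15 lowest changes, and the 8 largest differences each way. Other named genes were not run. No log2 change of these 39 genes and no list median past 1.5-fold changed sign. Medians near 0 did: with a limit of 1 TPM that of the TGFβ ligands was 0.03 in place of -0.03, that of the cAMP and CREB genes -0.03 in place of 0.06, and that of the Notch genes 0.15 in place of -0.11, while those of the EMT factors (0.01) and aldo-keto reductases (0.04) went below 0 under some scalings. The counts of genes at least 2-fold higher and lower in the S133A-KCREB line, 144 and 224, became 239 and 339 with a mean limit of 1 TPM, 290 and 385 with no filter, 89 and 135 with a pseudocount of 5 TPM, and 71 and 118 with FPKM, where 8254 genes passed the level limit in place of 10301. They stayed within 1.5 times under a pseudocount of 0.1 TPM, a limit of 10 TPM, median-of-ratios scaling, removal of mitochondrially encoded genes, summing by gene name and quantile normalization, which was added after seeing the data. The count of genes differing from the other 6 lines, 0 under limma, was 1 with a pseudocount of 0.1 TPM (LOC118568415, mean 2.07 TPM in the line) and 238 with no filter, of which 235 had a mean under 1 TPM over 14 libraries and 0 a mean of at least 5 TPM in the line. It was 0 without each of the other lines in turn. In the other 6 lines the TGFβ calls numbered 1803 to 2578 higher and 1796 to 2439 lower when each line was left out. With no replicate block, that is without the pairing by line, they numbered 377 higher and 331 lower in place of 2576 and 2405. Without read totals, the counting error of genes with low TPM is unknown. Among the 39 genes run, the log2 change moved by more than the SD across genes in 21 with FPKM. The count was 23 with a pseudocount of 5 TPM, 10 with one of 0.1 TPM and 0 under the scaling alternatives. The order of these genes changed too. With a pseudocount of 0.1 TPM Lif (5.14) and Cmah (4.96) had the largest rises, and with one of 5 TPM Ctsw (3.49) and Fn1 (3.16). With 5 TPM the largest fall was in Prelp (-3.23), while Slurp1 was at -2.31.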

Other observations

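Genes of the Wnt, insulin-like growth factor and integrin lists are given here as values of the S133A-KCREB line. The Wnt antagonist gene Sfrp1 had 9.60 TPM with TGFβ and 30.3 TPM in the control, and Wnt7a had 2.71 TPM with TGFβ and 9.23 TPM in the control. Lef1, a transcription factor of the Wnt pathway, had 30.1 TPM with TGFβ and 16.1 TPM in the control. Irs1, an adaptor of the insulin and IGF receptors, had 6.52 TPM with TGFβ and 20.2 TPM in the control, a log2 change of -1.50; in the other 6 lines it fell by a mean of 1.47 (limma adjusted p = 0.000255). Of the integrins, Itga5, the fibronectin receptor subunit, had 139 TPM with TGFβ and 64.1 TPM in the control, and Itgb8 had 6.55 TPM with TGFβ and 16.5 TPM in the control.

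Aldo-keto reductase genes split: Akr1c18 and Akr1c14 were lower, with Akr1c14 at 2.44 TPM with TGFβ and 14.3 TPM in the control, and Akr1b3, the aldose reductase gene of the lens, had 192 TPM with TGFβ and 145 TPM in the control. In the ATF4 list 0 of 22 measured genes passed 2-fold, beside 1.40% of all 10301 genes higher and 2.17% lower. Ddit4, a stress-induced inhibitor of mTORC1, had 120 TPM with TGFβ and 99.8 TPM in the control, a log2 change of 0.26, while its changes in the other 6 lines ran over 0.66 to 1.87.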
